A study of Arabidopsis thaliana with 15 samples.

Results

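Class III peroxidases are secreted haem enzymes that plants hold in large families. In the cell wall they use hydrogen peroxide to oxidise phenolic compounds, which joins monolignols into lignin and crosslinks wall proteins such as extensins, and they can also release reactive oxygen that loosens the wall. In roots they are known for the lignin of the Casparian strip, the barrier ring of the endodermis, for the lignin of water-conducting vessels, for the growth of root hairs and for setting where cells stop dividing and start to elongate.

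The genes described here are the measured members of this family on Affymetrix ATH1 arrays of Arabidopsis thaliana roots. Of 60 listed family members, 43 had a probe set that the platform annotation gives to that gene alone, out of 13350 genes with such a probe set. Each of the 43 was represented by its own probe set. A further 6 members lay on 3 probe sets that each name a pair of neighbouring genes and were not used. The remaining 11 were not analysed here, among them RCI3, PRXCA, PRXCB, PA2, RHS18 and RHS19. Genes are named by their locus tags, with a symbol where the annotation gives one.

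The seedlings were Col-0, germinated on 10 µM NPA, which blocks polar auxin transport and so holds back lateral roots. At 3 days after germination came a transfer to either 10 µM of the synthetic auxin NAA or 50 µM of naxillin, an inducer of lateral roots that the submitters describe as not auxin-like. Roots were taken before the transfer, which is the control group, and 2 h and 6 h after it, giving 5 groups and 15 arrays in all. Each group has 3 arrays that the labels number as biological replicates of independent experiments. Each sample held 500 root sections without the meristem, so all cell types of the mature root were pooled, and all groups, the control included, had been on NPA. No group was moved to medium without a compound. A difference from the roots before treatment therefore holds the transfer and the elapsed time along with the compound, and the 2 compounds were given at different doses.

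Values are the deposited log2 levels of probe sets, ranging from 2.99 to 14.8, with array medians between 7.08 and 7.18. Replicates correlated at 0.984 to 0.996 across probe sets. Probe sets differ in how strongly they bind, so a level is compared only with the same gene on other arrays. A gene was called at an adjusted p under 0.05 in limma, adjusted over the 22746 non-control probe sets, and standard errors (SE) are those of that fit. The root marker PYK10 read 14.2 to 14.6 on every array. The cortex marker AT1G62500 stayed between 4.51 and 5.10, near the lower quartile of all probe sets, which was 4.69 to 4.80 on the different arrays. No marker of the endodermis, of non-hair cells or of the meristem had a probe set of its own (0 of 8, 0 of 2 and 0 of 3). The photosynthesis genes RCA and LHCB4.2, the 2 measured of 6 shoot markers, averaged 9.46 to 9.99 before treatment, 7.90 to 8.64 and 6.90 to 7.43 after 2 h and 6 h of NAA, and 8.40 to 9.26 and 8.69 to 9.45 after 2 h and 6 h of naxillin. Their part in the results below was not tested. In such pooled tissue, fewer cells of a type and less RNA per cell cannot be told apart.

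Peroxidase genes moved in both directions, and most after 6 h of NAA. At that time 25 of the 43 were called, 16 lower and 9 higher, where 52.1% of all probe sets were called, 29.4% lower and 22.8% higher. At least 2-fold lower were 11 members, or 25.6%, against 9.82% of all probe sets, and at least 2-fold higher were 7, or 16.3%, against 10.2%. The median size of the log2 difference was 0.58 over the members and 0.34 over all probe sets. The NAA 6 h arrays did not overlap the arrays before treatment in 24 members, or 55.8%, against 59.8% of all probe sets. The share of members called was thus near that of the whole array, and the share past 2-fold on the lower side was above it.

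The other contrasts with the roots before treatment called fewer members. After 2 h of NAA, 9 were called, 7 higher and 2 lower, where 25.8% of all probe sets were called, 10.5% higher and 15.3% lower. After 2 h of naxillin, 6 were called, all higher, where 10.6% of all probe sets were called, 4.40% higher and 6.16% lower; 4 members were lower at an unadjusted p under 0.05. After 6 h of naxillin, 3 were called, 2 higher and 1 lower, against 0.963% of all probe sets, 0.580% higher and 0.382% lower. The arrays did not overlap those before treatment in 19 members, or 44.2%, after 2 h of NAA, where 37.8% of all probe sets did not. They did not overlap in 15 members, or 34.9%, after 2 h of naxillin, where 28.3% of all probe sets did not, and in 9, or 20.9%, after 6 h of naxillin, where 18.3% did not. No naxillin call held when each array was left out in turn: without replicate 3 of the roots before treatment, 0 members were called at either naxillin time, and without replicate 2 of that group 1 was called at 2 h and 0 at 6 h. With NAA, 5 of the 9 calls at 2 h and 21 of the 25 at 6 h held in every such fit. These 4 contrasts share the 3 arrays before treatment. In all, 14 members were called in none of them.

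**Figure D1:**
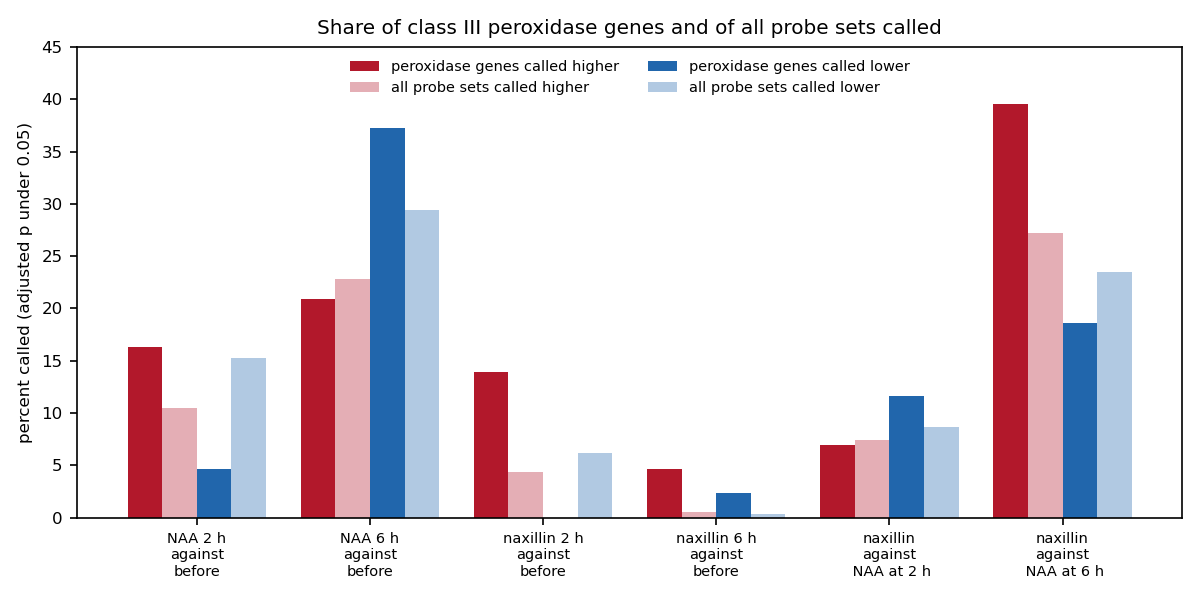
Percent of the 43 peroxidase genes (dark bars) and of all 22746 probe sets (light bars) called higher (red) or lower (blue) in each contrast, at an adjusted p under 0.05 in limma. After 6 h of NAA 37.2% of the members were called lower, against 29.4% of all probe sets, and after 2 h of naxillin no member was called lower.

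**Figure D2:**
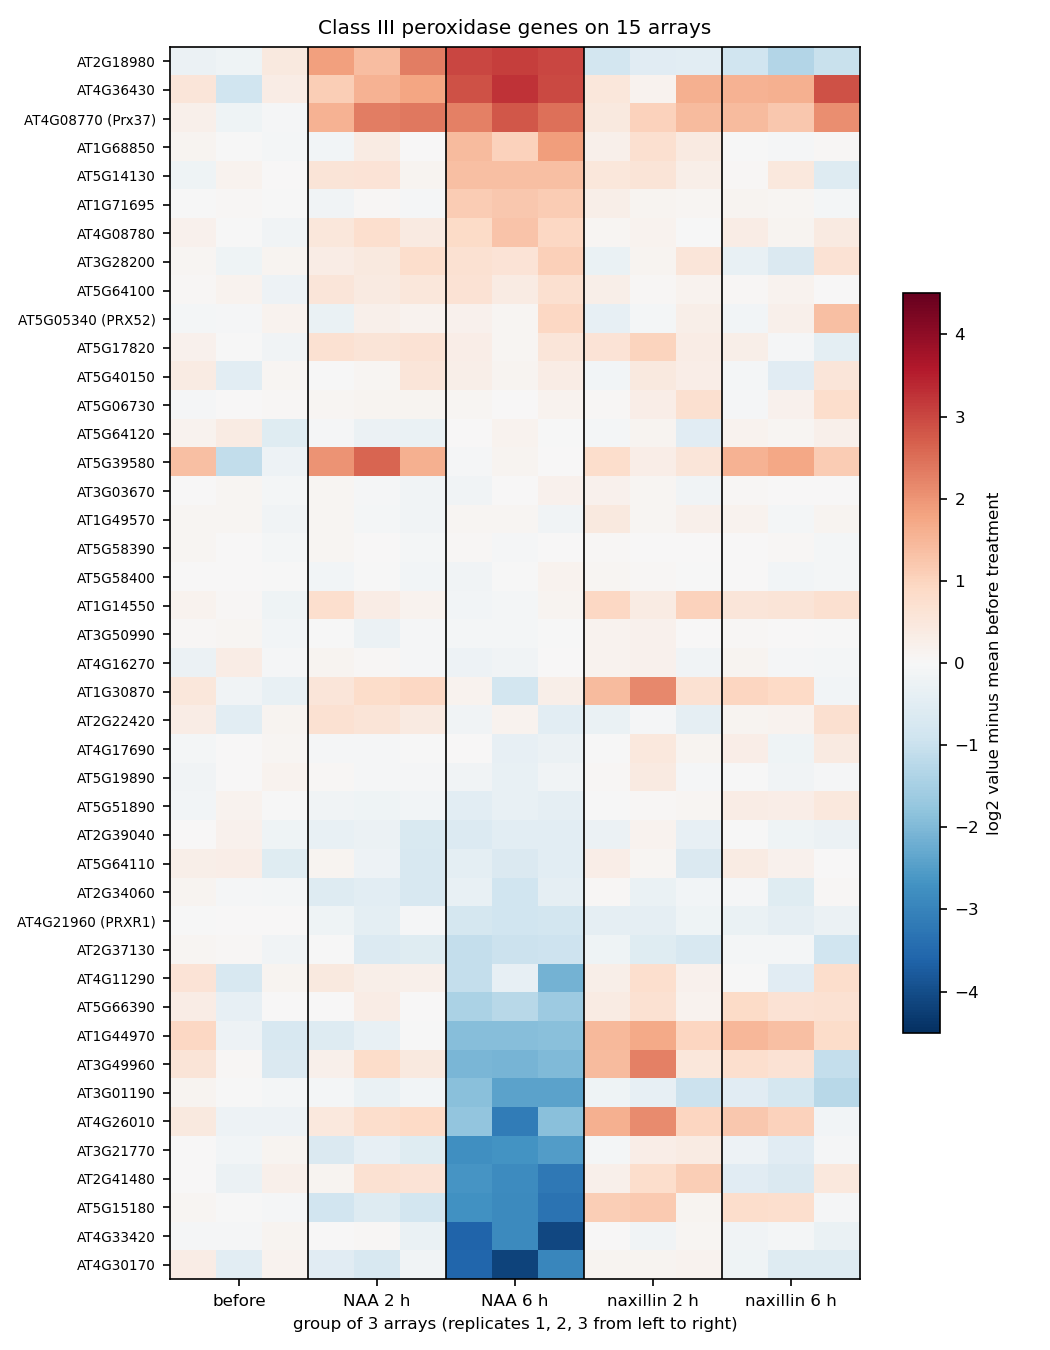
Log2 value of each of the 43 genes on each of the 15 arrays minus the mean of its 3 arrays before treatment, with red for higher and blue for lower. The strongest blue block lies on the 3 arrays after 6 h of NAA, while AT2G18980, AT4G36430 and Prx37 are red there.

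These splits lean on how the arrays were scaled. Shifting each array so that the 27 probe sets of the spiked bacterial poly-A RNAs agreed moved the median of all probe sets after 6 h of NAA from -0.03 to 0.21 on the log2 scale. The members called then numbered 25 again, 13 higher and 12 lower instead of 9 and 16, but they were not the same genes. The lower calls of AT2G34060, AT2G39040, AT4G11290 and AT5G51890 were lost, with differences still below 0, and AT3G03670, AT5G17820, AT5G58390 and AT5G58400 were called higher under that scaling and not in the values as deposited. After 2 h of NAA the split changed from 7 higher and 2 lower to 7 higher and 0 lower, and after 6 h of naxillin from 2 and 1 to 2 and 2. The members given as lower below by more than 1 log2 unit after 6 h of NAA stayed called under that scaling, with the exception of AT4G11290. In the deposited values the spiked probe sets had already been normalised by quantiles with all others. Which scaling is nearer the truth therefore cannot be settled from these values.

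Members of the Casparian strip machinery fell after 6 h of NAA. AT1G44970, AT4G11290 and AT5G66390 (PRX72) belong to a group of peroxidases needed together for Casparian strip lignin. They were the 3 measured of 5 such members. All 3 were called lower, where 29.4% of all probe sets were called lower. After 6 h of naxillin 0 of the 3 were called, and none had a negative difference: AT1G44970 was at 1.23 (adjusted p = 0.103), PRX72 at 0.73 (adjusted p = 0.0676) and AT4G11290 at 0.09 (adjusted p = 0.954) on the log2 scale.

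AT1G44970 read 7.04, 5.87 and 5.39 before treatment, 5.52, 5.75 and 6.10 after 2 h of NAA and 4.17, 4.195 and 4.23 after 6 h of NAA. With naxillin it read 7.57, 7.82 and 7.08 at 2 h and 7.60, 7.45 and 6.93 at 6 h. The NAA 6 h arrays lay below all others, under the lower quartile of the probe sets, and all naxillin arrays lay above all but replicate 1 before treatment. The gene fell by 1.90 on the log2 scale after 6 h of NAA (SE 0.33, 3.74-fold, adjusted p = 0.000196) and rose by 1.39 after 2 h of naxillin (SE 0.33, adjusted p = 0.0183). The naxillin call was lost without naxillin 2 h replicate 2 (adjusted p = 0.0772) or without replicate 2 (0.0733) or 3 (0.0718) of the roots before treatment.

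PRX72 read 10.67, 9.96 and 10.33 before treatment and 10.34, 10.66 and 10.34 after 2 h of NAA. After 6 h of NAA it read 8.88, 9.07 and 8.68, below every other array, and it fell by 1.44 on the log2 scale (SE 0.17, adjusted p = 7.62e-06). With naxillin it read 10.70, 10.99 and 10.48 at 2 h and 11.17, 10.98 and 11.01 at 6 h, the latter above all arrays before treatment. AT4G11290 varied more between replicates: it read 8.01, 6.67 and 7.51 before treatment and 6.32, 7.04 and 5.27 after 6 h of NAA, groups that overlap. Its log2 difference of -1.19 (SE 0.42, adjusted p = 0.0295) was lost as a call without NAA 6 h replicate 1 (adjusted p = 0.0538) or 3 (0.162), or without replicate 1 (0.133) or 3 (0.0772) of the roots before treatment. Under poly-A scaling its adjusted p was 0.0735.

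Among members tied to lignin in vessels and stems, 4 of the 7 measured fell after 6 h of NAA, 0 rose, and 3 were not called. Over all probe sets 29.4% were called lower and 22.8% higher there. The 4 that fell included AT4G33420 and AT5G51890, whose zinnia relatives mark differentiating vessels, and PRX25 (AT2G41480), which acts in stem lignin. The other was PRX72, which was also counted in the Casparian strip group. No member of this group was called after 2 h of either compound or after 6 h of naxillin; the nearest to a call was AT5G51890 after 6 h of naxillin, given below.

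AT4G33420 had the second largest fall of all members after 6 h of NAA. It read 11.95, 11.93 and 12.10 before treatment, 11.996, 12.03 and 11.69 after 2 h of NAA, and 8.38, 9.14 and 7.90 after 6 h of NAA. With naxillin the 3 arrays at 2 h read 12.01, 11.85 and 12.07 and those at 6 h 11.84, 11.90 and 11.70. All arrays but those after 6 h of NAA thus lay within a narrow band, and the gene fell by 3.52 on the log2 scale, or 11.5-fold (SE 0.22, adjusted p = 1.59e-08).

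PRX25 read 8.39, 8.11 and 8.61 before treatment and 8.49, 9.04 and 8.98 after 2 h of NAA. At 6 h of NAA it read 5.71, 5.55 and 5.14, which was 7.48-fold lower than before treatment (log2 difference -2.90, SE 0.29, adjusted p = 1.22e-06). The naxillin arrays, at 8.60, 9.16 and 9.47 after 2 h and 7.88, 7.71 and 8.85 after 6 h, overlapped those before treatment. AT5G51890 moved little and in a narrow spread: 10.46, 10.72 and 10.56 before treatment, 10.10, 10.26 and 10.19 after 6 h of NAA and 10.92, 10.89 and 11.04 after 6 h of naxillin. Its log2 difference was -0.40 with NAA (SE 0.08, adjusted p = 0.000839), which poly-A scaling took to -0.15 (adjusted p = 0.177), and 0.37 with naxillin, just short of a call (adjusted p = 0.052).

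The other 3 members of this group were not called against the roots before treatment. AT2G22420, tied to lignified tissues, differed by 0.55 after 2 h of NAA (adjusted p = 0.078) and by -0.15 after 6 h (adjusted p = 0.598). PRX71 (AT5G64120), a stem lignin peroxidase, read between 11.84 and 12.75 on all 15 arrays, with its lowest value in replicate 3 before treatment. PRX52 (AT5G05340), which acts in the lignin of fibres, read 4.27 to 4.90 on all arrays but replicate 3 of NAA 6 h (5.56) and of naxillin 6 h (5.98).

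Some root hair members were called higher after 2 h of naxillin and some lower after 6 h of NAA. Of 7 such members 4 were measured: AT4G26010, which promotes root hair growth, AT1G30870 and AT3G49960, known as genes expressed in root hair cells, and AT5G17820. After 2 h of naxillin 3 of the 4 were called higher and 0 lower, where 4.40% of all probe sets were called higher, and after 6 h of NAA 2 were called lower and 0 higher, where 29.4% of all probe sets were called lower. After 2 h of NAA 1 was called higher, where 10.5% of all probe sets were, and after 6 h of naxillin 0 were called. Between the compounds at 2 h 0 of the 4 were called, where 16.1% of all probe sets were. After 2 h of NAA, AT1G30870 (0.76, adjusted p = 0.188) and AT4G26010 (0.72, adjusted p = 0.23) also lay higher without overlap, but were not called. AT5G39580 and AT5G64100, tied to root hairs in the cold and described below, are not counted in this group. AT5G64100 was called higher at both NAA times and AT5G39580 at 2 h of NAA, and neither was called with naxillin.

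AT4G26010 read 9.58, 8.91 and 8.93 before treatment, 9.61, 9.94 and 10.03 after 2 h of NAA and 7.37, 5.99 and 7.27 after 6 h of NAA. It read 10.74, 11.26 and 10.12 after 2 h of naxillin and 10.34, 10.16 and 9.03 after 6 h. The NAA 6 h arrays were the lowest of all and the naxillin 2 h group had the highest mean, neither overlapping the roots before treatment. It fell by 2.26 on the log2 scale after 6 h of NAA (SE 0.40, 4.79-fold, adjusted p = 0.000253) and rose by 1.56 after 2 h of naxillin (SE 0.40, 2.96-fold, adjusted p = 0.0264). The rise was lost as a call without naxillin 2 h replicate 1 (adjusted p = 0.0539) or 2 (0.112), or without replicate 2 (0.094) or 3 (0.0863) before treatment.

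AT3G49960 followed a like order on the arrays, at 7.71, 7.19 and 6.49 before treatment, 5.06, 5.04 and 5.14 after 6 h of NAA and 8.56, 9.39 and 7.66 after 2 h of naxillin. It fell by 2.05 with NAA (SE 0.48, adjusted p = 0.00222), to values only just above the lower quartile of all probe sets. The naxillin 2 h difference of 1.41 was not called (SE 0.48, adjusted p = 0.0793), and those arrays overlapped the ones before treatment. AT1G30870 read 8.89, 8.21 and 8.06 before treatment and 9.83, 10.55 and 9.09 after 2 h of naxillin, without overlap, and rose by 1.44 (SE 0.39, adjusted p = 0.0332). That call was lost without naxillin 2 h replicate 1 (adjusted p = 0.0636) or 2 (0.139), or without replicate 2 (0.108) or 3 (0.113) before treatment. After 6 h of NAA its difference was -0.14 (adjusted p = 0.806).

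AT5G17820 rose slightly after 2 h of both compounds. It read 11.49, 11.27 and 11.13 before treatment, 11.98, 11.87 and 11.95 after 2 h of NAA and 11.91, 12.31 and 11.64 after 2 h of naxillin, with both treated groups above the first. The log2 differences were 0.63 with NAA (SE 0.19, adjusted p = 0.0225) and 0.65 with naxillin (SE 0.19, adjusted p = 0.0412). The NAA call was lost without NAA 2 h replicate 1 (adjusted p = 0.0591) or 3 (0.0616), or without replicate 2 (0.0668) or 3 (0.0839) before treatment. The naxillin call was lost without any 1 of 8 arrays, with an adjusted p of at most 0.171, which was reached without naxillin 2 h replicate 2. At 6 h it was not called with either compound.

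Root hair markers moved beside these members. EXPA7 and EXPA18, expansins of root hair cells and the 2 measured of 11 markers, averaged 6.80 to 7.34 before treatment, 7.55 to 8.22 after 2 h of NAA and 5.62 to 6.14 after 6 h of NAA. Their average was 7.995 to 9.14 after 2 h of naxillin and 7.01 to 7.93 after 6 h. Both were called higher after 2 h of naxillin, at log2 differences of 1.57 and 1.44, and lower after 6 h of NAA, at -1.13 and -1.15. After 2 h of NAA EXPA7 was called higher (1.02, adjusted p = 0.0197) and EXPA18 was not (0.80, adjusted p = 0.0715). Neither was called between the compounds at 2 h (adjusted p = 0.256 and 0.194). The part of root hair number in the peroxidase values was not tested.

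**Figure D3:**
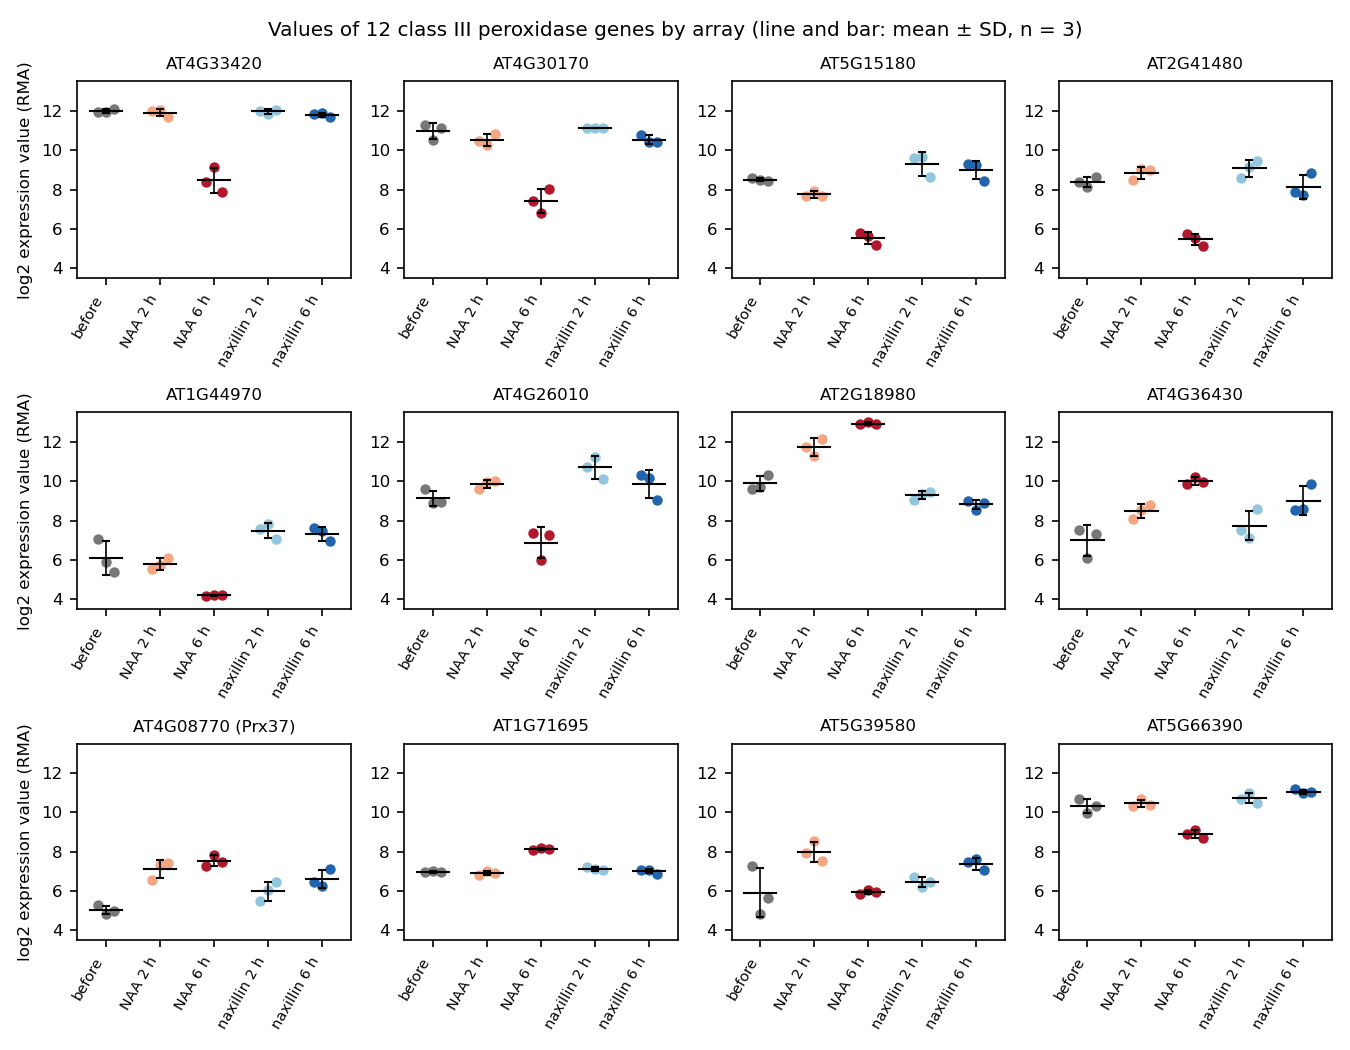
Log2 values of selected peroxidase genes on every array, grouped by treatment and time, with a bar at each group's mean. The arrays after 6 h of NAA lie below all others for AT4G33420 and PRX25, and those for AT2G18980 lie above all others, between 12.89 and 13.00.

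UPBEAT1 is a transcription factor that represses peroxidase genes where cells leave the dividing zone, and AT5G17820, AT4G11290 and AT4G16270 are known to be bound by it. All 3 were measured, and no contrast called more than 1 of them. After 6 h of NAA 1 was called lower and 0 higher, where 29.4% of all probe sets were called lower and 22.8% higher. After 2 h of each compound 1 was called higher, where 10.5% of all probe sets were with NAA and 4.40% with naxillin. AT4G16270 stayed between 5.10 and 5.68 on all 15 arrays and was called in no contrast. The UPB1 gene itself was not called in any contrast, and it read 4.40 to 7.29, with every replicate 3 array at 5.05 or below.

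Relatives of the oxidative burst peroxidases rose with NAA. Prx37 (AT4G08770), whose overexpression stunts plants, and its neighbour AT4G08780 are close relatives of the peroxidases that make hydrogen peroxide when pathogens are sensed. They were the 2 measured of 5 such genes, and both were called higher at 2 h and 6 h of NAA. At these times 10.5% and 22.8% of all probe sets were called higher.

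Prx37 read 5.26, 4.82 and 4.98 before treatment, 6.58, 7.31 and 7.40 after 2 h of NAA and 7.28, 7.82 and 7.49 after 6 h. With naxillin it read 5.47, 6.06 and 6.43 at 2 h and 6.43, 6.23 and 7.09 at 6 h. All treated arrays lay above all arrays before treatment, and Prx37 was the 1 member called in all 4 contrasts with them. Its log2 differences were 2.08 at 2 h (SE 0.28, adjusted p = 0.000114) and 2.51 at 6 h of NAA (SE 0.28, adjusted p = 3.62e-06), and 0.97 (SE 0.28, adjusted p = 0.0423) and 1.57 (SE 0.28, adjusted p = 0.0181) at 2 h and 6 h of naxillin. The naxillin 2 h call was lost without any 1 of 8 arrays, with an adjusted p of up to 0.164 without naxillin 2 h replicate 3. The naxillin 6 h call was lost without naxillin 6 h replicate 1 (adjusted p = 0.0537) or 3 (0.0599), or without replicate 2 (0.0924) or 3 (0.0757) before treatment.

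AT4G08780 was dim, at 4.19, 3.98 and 3.84 before treatment, 4.53, 4.76 and 4.41 after 2 h of NAA and 4.88, 5.28 and 4.93 after 6 h. It rose by 0.56 (SE 0.13, adjusted p = 0.00592) and 1.02 (SE 0.13, adjusted p = 1.18e-05) on the log2 scale, from values under the lower quartile of all probe sets. Naxillin gave 0.08 at 2 h and 0.28 at 6 h, neither called. Whether its probes also bind transcripts of Prx37 next to it was not tested.

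Of 6 members known from stress responses 4 were measured. At 2 h of each compound 1 of them was called higher and 0 lower. Over all probe sets 10.5% were called higher after 2 h of NAA and 4.40% after 2 h of naxillin. After 6 h 0 were called with either compound, where 52.1% of all probe sets were with NAA and 0.963% with naxillin. PRX71, above, and AT5G06730, which read 4.07 to 4.91, were called in no contrast. AT5G39580, which supports root hair growth in the cold, had a brief rise with NAA. It read 7.24, 4.80 and 5.66 before treatment, 7.92, 8.53 and 7.50 after 2 h of NAA and 5.84, 6.02 and 5.92 after 6 h. The 2 h arrays lay above all 3 earlier ones, whose spread was wide, and the 6 h arrays lay among them. The log2 difference was 2.08 at 2 h (SE 0.44, adjusted p = 0.00337) and 0.03 at 6 h (adjusted p = 0.97). With naxillin it read 6.70, 6.20 and 6.45 at 2 h and 7.45, 7.64 and 7.05 at 6 h, and neither was called.

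The fourth stress member, AT1G14550, read 4.74, 4.63 and 4.41 before treatment and 5.54, 4.95 and 5.63 after 2 h of naxillin. It rose by 0.78 (SE 0.18, adjusted p = 0.0148), a call lost without naxillin 2 h replicate 3 (adjusted p = 0.0667) or replicate 3 before treatment (0.0632). AT5G64100, which acts with AT5G39580 in cold-grown root hairs, was called higher at both NAA times. It read 12.90, 12.97 and 12.62 before treatment, 13.37, 13.22 and 13.35 after 2 h of NAA and 13.47, 13.19 and 13.56 after 6 h. Those small rises of 0.48 (SE 0.11, adjusted p = 0.00596) and 0.58 (SE 0.11, adjusted p = 0.000518) were free of overlap, and naxillin gave 0.16 and 0.07, neither called.

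Several of the largest movements were in members with no role given here. AT2G18980 had the largest rise of all members after 6 h of NAA. It read 9.63, 9.70 and 10.34 before treatment, 11.75, 11.27 and 12.18 after 2 h of NAA and 12.89, 13.00 and 12.90 after 6 h. With naxillin it read 9.06, 9.36 and 9.43 at 2 h and 9.01, 8.56 and 8.90 at 6 h, all below the arrays before treatment. It rose by 1.84 (SE 0.22, adjusted p = 3.93e-05) and then 3.04 (SE 0.22, 8.22-fold, adjusted p = 5.97e-08) with NAA, and fell by 1.07 on the log2 scale after 6 h of naxillin (SE 0.22, adjusted p = 0.0373). The naxillin call was lost without any 1 of 10 arrays, with an adjusted p of up to 0.157 without replicate 3 before treatment.

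AT4G36430 read 7.54, 6.10 and 7.32 before treatment, 8.10, 8.56 and 8.77 after 2 h of NAA, 9.86, 10.23 and 9.96 after 6 h of NAA and 8.55, 8.60 and 9.87 after 6 h of naxillin. These 3 treated groups lay above the first, while the naxillin 2 h arrays, at 7.50, 7.13 and 8.58, overlapped it (difference 0.75, adjusted p = 0.324). In the order above, the log2 differences of the other 3 were 1.49 (SE 0.43, adjusted p = 0.0209), 3.03 (SE 0.43, adjusted p = 3.62e-05) and 2.02 (SE 0.43, adjusted p = 0.0451). The NAA 2 h call was lost without NAA 2 h replicate 2 (adjusted p = 0.0607) or 3 (0.0771) or replicate 2 before treatment (0.108). The naxillin call was lost without any 1 of 12 arrays, with an adjusted p of up to 0.174 without replicate 2 before treatment.

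Further rises after 6 h of NAA had no call at 2 h. AT1G68850 went from 9.88, 9.75 and 9.68 before treatment to 11.21, 10.82 and 11.64 after 6 h of NAA (log2 difference 1.45, SE 0.18, adjusted p = 1.21e-05). AT5G14130 went from 10.56, 10.90 and 10.76 to 12.08, 12.09 and 12.11 (1.35, SE 0.21, adjusted p = 6.88e-05). AT1G71695 went from 6.93, 7.01 and 6.94 to 8.09, 8.18 and 8.11 (1.16, SE 0.08, adjusted p = 6.75e-08). In each of these genes the NAA 6 h arrays lay above the other 12 arrays. AT3G28200 rose by 0.79 (SE 0.28, adjusted p = 0.03), which was lost without NAA 6 h replicate 1 (adjusted p = 0.0509) or 3 (0.114), or without replicate 1 (0.0512) or 2 (0.0983) before treatment.

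The largest fall of all members after 6 h of NAA was that of AT4G30170. It read 11.31, 10.51 and 11.13 before treatment and 7.40, 6.80 and 8.03 after 6 h of NAA, against 10.80, 10.42 and 10.41 after 6 h of naxillin. It fell by 3.57 on the log2 scale, or 11.9-fold (SE 0.27, adjusted p = 8.59e-08), and the naxillin 6 h difference was -0.44 (adjusted p = 0.511). AT5G15180 read 8.57, 8.49 and 8.43 before treatment, 7.65, 7.94 and 7.66 after 2 h of NAA and 5.77, 5.62 and 5.17 after 6 h. It lay lower at each NAA time without overlap, with a difference of -0.75 at 2 h that was not called (adjusted p = 0.0555) and one of -2.98 at 6 h (SE 0.27, adjusted p = 4.9e-07). With naxillin at 2 h it read 9.59, 9.68 and 8.62, above the roots before treatment, at a difference of 0.80 that was not called (adjusted p = 0.0755).

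AT3G21770 read 11.96, 11.82 and 12.08 before treatment, 11.31, 11.59 and 11.42 after 2 h of NAA and 9.19, 9.28 and 9.46 after 6 h. The NAA arrays stepped down without overlap, at a log2 difference of -0.52 after 2 h (SE 0.14, adjusted p = 0.0164) and of -2.65 after 6 h (6.26-fold, SE 0.14, adjusted p = 3.97e-09). The 2 h call was lost without NAA 2 h replicate 1 (adjusted p = 0.0597) or replicate 3 before treatment (0.0648), and under poly-A scaling (0.0635). AT3G01190 went from 11.56, 11.40 and 11.34 before treatment to 9.55, 9.04 and 9.02 after 6 h of NAA (log2 difference -2.23, SE 0.21, adjusted p = 8.44e-07). Its naxillin 6 h arrays, at 10.93, 10.66 and 10.19, also lay below those before treatment, at a difference of -0.84 that was not called (adjusted p = 0.0823).

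Smaller falls after 6 h of NAA were called for AT2G37130 (-0.99), PRXR1 (-0.84), AT2G34060 (-0.55) and AT2G39040 (-0.51), given as log2 differences. PRXR1 (AT4G21960) read 13.82, 13.86 and 13.87 before treatment and 13.05, 12.94 and 13.04 after 6 h of NAA. AT2G34060 was also called lower at 2 h of NAA (-0.60, SE 0.17, adjusted p = 0.0199), from 5.80, 5.63 and 5.59 to 5.08, 5.19 and 4.96. Its call at 2 h was lost without NAA 2 h replicate 3 (adjusted p = 0.074) or replicate 1 before treatment (0.0704), and at 6 h without NAA 6 h replicate 2 (0.081) or replicate 1 before treatment (0.0552). The 6 h call of AT2G39040 was lost without replicate 2 before treatment (adjusted p = 0.0547). Under poly-A scaling neither AT2G34060 nor AT2G39040 was called at 6 h (adjusted p = 0.146 and 0.139).

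The 14 members called in none of the contrasts with the roots before treatment included PRX52, PRX71, AT2G22420, AT4G16270 and AT5G06730, described above. AT5G64110, AT5G40150, AT1G49570, AT3G03670, AT3G50990, AT4G17690, AT5G19890, AT5G58390 and AT5G58400 made up the rest. In 5 of the 43 members the highest group mean was under 4.76, the mean lower quartile of the arrays, so a change there may not be detectable, and 29 members lay above 4.80 on all 15 arrays.

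The compounds were compared directly at each time, at their different doses. At 2 h, 8 members were called, 3 higher and 5 lower with naxillin, where 16.1% of all probe sets were called, 7.39% higher and 8.68% lower. At 6 h, 25 were called, 17 higher and 8 lower, where 50.6% of all probe sets were called, 27.2% higher and 23.5% lower. With naxillin at 6 h, 12 members were at least 2-fold higher and 4 at least 2-fold lower, or 27.9% and 9.30%, against 9.17% and 10.7% of all probe sets. The groups did not overlap in 16 members at 2 h and 24 at 6 h, against 29.2% and 57.0% of all probe sets. Under poly-A scaling the median of all probe sets at 6 h moved from 0.02 to -0.29, and the split became 12 higher and 14 lower. Without naxillin 2 h replicate 1 the 2 h count dropped to 4, and without NAA 2 h replicate 2 to 5.

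At 2 h, AT1G44970 of the Casparian strip group was higher with naxillin by 1.70 on the log2 scale (SE 0.33, adjusted p = 0.00257), AT5G15180 by 1.55 (SE 0.27, adjusted p = 0.00118) and AT3G21770 by 0.70 (SE 0.14, adjusted p = 0.00375). Lower with naxillin were AT2G18980 at -2.45 (adjusted p = 4.03e-06), AT5G39580 at -1.53 (0.0288), Prx37 at -1.11 (0.0142), AT2G22420 at -0.81 (0.0175) and AT4G08780 at -0.48 (0.0208). The first 3 and AT2G18980 held with each array left out. The call of AT5G39580 was lost without any naxillin 2 h array or without NAA 2 h replicate 1 or 2 (adjusted p up to 0.11). Those of AT2G22420 and AT4G08780 were lost without naxillin 2 h replicate 1 or 3 or 1 NAA 2 h array (replicate 1 for AT2G22420, up to 0.062, and 2 for AT4G08780, up to 0.0864). That of Prx37 was lost without naxillin 2 h replicate 1 or NAA 2 h replicate 2 or 3 (up to 0.0726).

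At 6 h the 5 largest excesses with naxillin were in genes that NAA lowered: AT5G15180 (11.1-fold), AT4G33420 (10.1-fold), AT4G30170 (8.76-fold), AT1G44970 (8.75-fold) and AT4G26010 (7.81-fold). Their log2 differences were 3.47 (adjusted p = 1.15e-07), 3.34 (2.71e-08), 3.13 (2.87e-07), 3.13 (2.02e-06) and 2.96 (2.27e-05), with no overlap between the groups. Among called members the 5 largest deficits were in AT2G18980, at -4.11 and 17.2-fold (adjusted p = 3.73e-09), AT1G68850 at -1.46 (1.13e-05), AT5G14130 at -1.37 (5.94e-05), AT1G71695 at -1.12 (9.33e-08) and Prx37 at -0.94 (0.0112). The Prx37 call was lost without naxillin 6 h replicate 2 (adjusted p = 0.0545) or NAA 6 h replicate 2 (0.0507).

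By role, all 3 Casparian strip members were called higher with naxillin than with NAA at 6 h. So were 4 of the 7 vessel and stem lignin members and 2 of the 4 root hair members, with none of them lower. PRX72 is counted in both of the first groups. Both burst relatives were called lower. Over all probe sets 27.2% were called higher and 23.5% lower in this contrast. AT4G11290, at 1.28 (adjusted p = 0.0209), lost its call without naxillin 6 h replicate 3 (0.0949) or NAA 6 h replicate 3 (0.119), and under poly-A scaling (0.0628). AT5G64110, a neighbour of PRX71 that was not called against the roots before treatment, was higher by 0.72 (adjusted p = 0.0348), a call lost without any NAA 6 h array or naxillin 6 h replicate 1 or 2 (up to 0.112). With replicate number as a block, AT5G64110 was also called lower after 6 h of NAA against the roots before treatment (-0.52, adjusted p = 0.0196). Between the compounds at 6 h the block added AT4G36430 (-1.01, adjusted p = 0.0244 against 0.0674 without it), AT2G34060 (0.37, 0.041) and AT2G39040 (0.36, 0.0242).

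**Figure D4:**
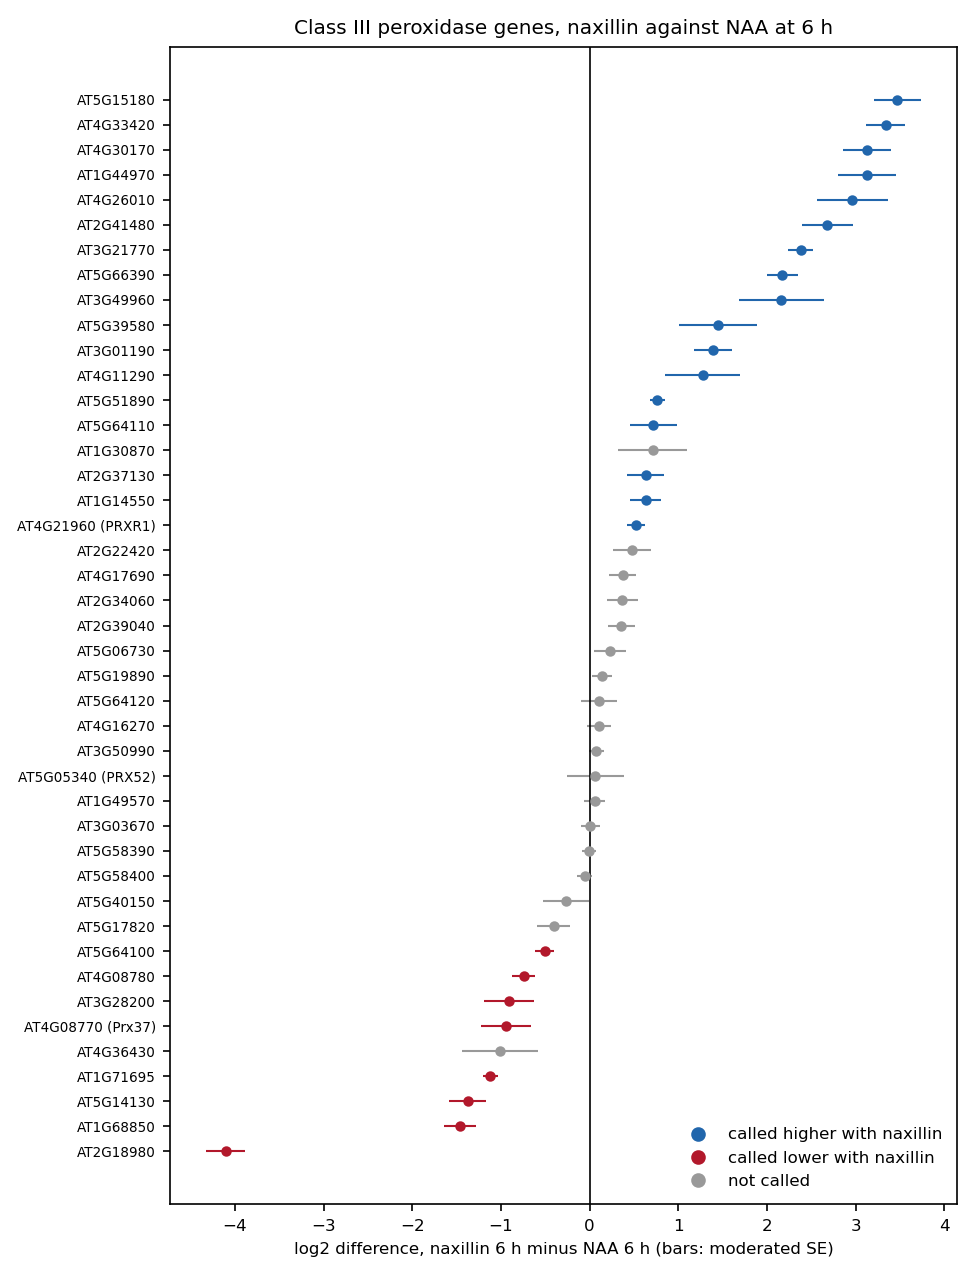
Log2 difference between naxillin 6 h and NAA 6 h for each of the 43 genes, with the moderated SE as bars, blue for called higher with naxillin, red for called lower and grey for not called. The 17 higher calls reach 3.47 in AT5G15180, and AT2G18980 lies apart from the 7 other lower calls at -4.11.

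Between 2 h and 6 h the members moved with NAA. From the first to the second time 22 were called, 16 lower and 6 higher, where 41.6% of all probe sets were called, 21.6% lower and 19.9% higher, and the arrays of the times did not overlap in 27 members, where 51.1% of all probe sets did not. At least 2-fold lower at 6 h were 12 members and at least 2-fold higher 4, or 27.9% and 9.30%, against 5.71% and 6.60% of all probe sets. With naxillin limma called 0 members between the times, with 11 at an unadjusted p under 0.05, where 2.29% of all probe sets were called, 0.813% higher and 1.47% lower. The naxillin times did not overlap in 7 members, where 17.2% of all probe sets did not. The change over time differed between the compounds in 17 members, 13 with a higher and 4 with a lower change with naxillin, where 30.3% of all probe sets were called, 15.1% higher and 15.2% lower. Under poly-A scaling that split became 10 and 11. The largest differences in change were those of AT4G33420, which dropped by 3.44 with NAA and by 0.17 with naxillin, and AT5G39580, at -2.06 with NAA (adjusted p = 0.0017) and 0.93 with naxillin (adjusted p = 0.36).

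**Figure D5:**
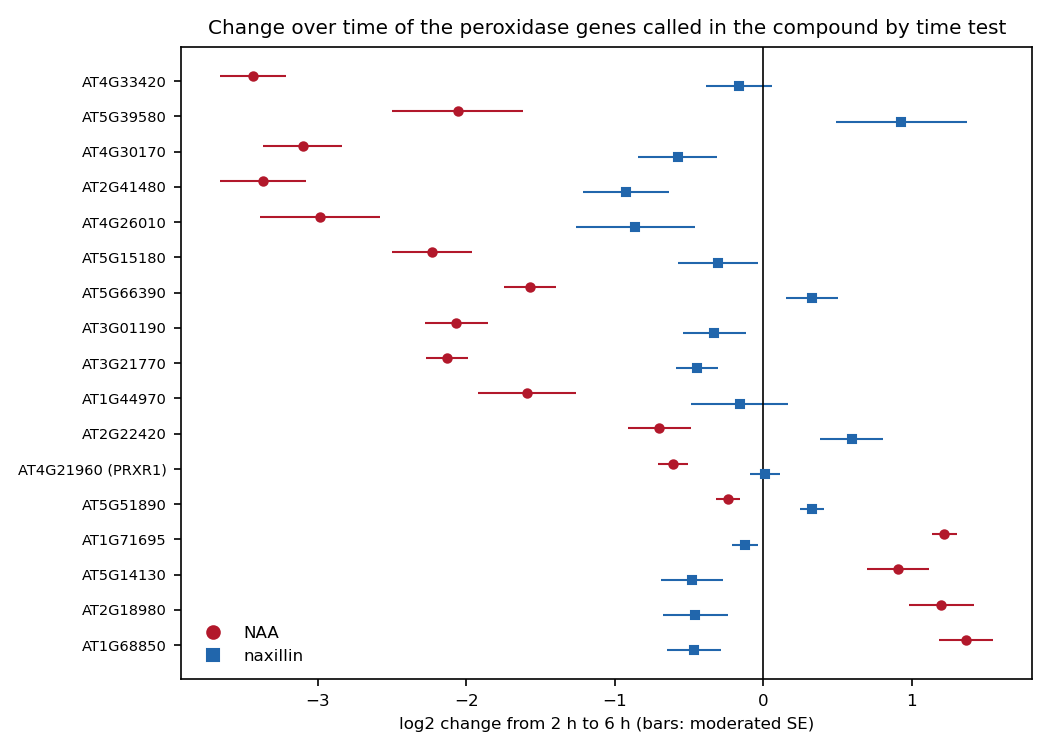
Log2 change from 2 h to 6 h with NAA (red circles) and with naxillin (blue squares), with the moderated SE as bars, for the 17 genes whose change differed between the compounds. With NAA 13 of them lie below 0 and 4 above, and the naxillin values lie between -0.92 and 0.93.

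Neighbouring members did not always move alike. On chromosome 4, Prx37 and AT4G08780 stand side by side and both rose with NAA. On chromosome 5, AT5G64100, AT5G64110 and PRX71 stand in a row, and after 6 h of NAA their log2 differences were 0.58, -0.52 and 0.06, of which the first was called. The adjacent AT5G58390 and AT5G58400 were called in no contrast and read 4.10 to 4.77.

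Few other genes of these pathways were given a probe set of their own by the annotation used. The enzymes HCT and CCR2, the 2 measured of 18 enzymes that make monolignols, both fell after 6 h of NAA, by 1.08 and by 1.35 on the log2 scale (adjusted p = 8.42e-07 and 2.01e-05). Both were called higher with naxillin than with NAA at that time. Over all probe sets 29.4% were called lower after 6 h of NAA and 27.2% higher with naxillin than with NAA at 6 h. LAC16, the 1 measured of 17 laccases, which are the other oxidases of monolignols, rose by 1.73 after 2 h of naxillin (adjusted p = 0.00687) and by 1.18 after 6 h of NAA (adjusted p = 0.00938).

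Of the extensins, wall proteins that peroxidases crosslink, 5 of 13 were measured. After 2 h of naxillin 4 rose, where 4.40% of all probe sets were called higher. After 6 h of NAA 4 fell, where 29.4% of all probe sets were called lower. After 2 h of NAA or 6 h of naxillin 0 were called. The differences of the 5 after 2 h of NAA were 0.18 to 0.40 on the log2 scale. Between the compounds at 2 h 1 of the 5 was called higher with naxillin and 0 lower, where 7.39% of all probe sets were called higher. With 2 h of naxillin and 6 h of NAA, HRGP1 was at 1.23 (adjusted p = 0.0142) and -1.65 (adjusted p = 0.000161). AT3G28550 was at 1.28 (adjusted p = 0.018) and -2.08 (adjusted p = 4.28e-05) in the same order. The count after 2 h of naxillin dropped to 1 without naxillin 2 h replicate 2 or replicate 2 before treatment and to 2 without replicate 3 before treatment, and that after 6 h of NAA stayed at 4 with each array left out. The probe sets of HRGP1, AT4G08410 and AT5G06630 are of a type that may bind related transcripts, so these 3 are not independent of each other.

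Of 10 NADPH oxidases, which make the superoxide that becomes hydrogen peroxide in the wall, 3 were measured. AT1G19230 was called higher in all 4 contrasts with the roots before treatment, at 1.42 and 1.41 after 2 h and 6 h of NAA and 1.46 and 1.04 after 2 h and 6 h of naxillin. AT4G11230 rose with NAA by 1.15 at 2 h and 2.19 at 6 h (adjusted p = 0.00123 and 8.59e-07), and naxillin gave 0.39 and 0.14, neither called. AT4G25090 was called in none of the 4. Of 17 enzymes that make or remove hydrogen peroxide inside cells, 2 were measured: the ascorbate peroxidase SAPX rose by 0.68 and 0.97 at 2 h and 6 h of NAA and by 0.66 at 2 h of naxillin, and TAPX was called lower after 6 h of NAA (-0.45, adjusted p = 0.0301). No call of SAPX at 2 h or of TAPX held with each array left out; replicate 2 before treatment was an array whose loss ended all 3.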

How the data were processed

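The deposited values were log2 expression values from RMA in affy 1.36.0, per the submitters' processing notes; RMA corrects background, normalises by quantiles and summarises probe sets. No further scaling was applied. Of 22810 probe sets, 64 controls were left out. A single limma 3.58.1 model (R 4.3.3) of group means took all 15 arrays, which left 10 residual degrees of freedom; Benjamini-Hochberg adjustment covered 22746 probe sets. The fit was tested on simulated data. Figures used Python 3.11.15 and matplotlib 3.10.9.

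Members, gene lists and tests were chosen with earlier results of these data known. Named were the 5 largest rises and falls among called members of each contrast with the roots before treatment and between the compounds, members in the role lists, and up to 4 called genes of each other pathway list; PRXR1, AT2G37130, AT2G39040, AT3G28200, AT5G64110 and the uncalled members were named after their values were seen. Names and neighbours came from RefSeq's TAIR10.1 annotation. No sequence is shown.

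Deviations of same-numbered arrays from their group means correlated at -0.23 to 0.63 (30 pairs). Every pair was above 0.1 for NAA 6 h with the roots before treatment, NAA 2 h with NAA 6 h, and naxillin 6 h with NAA 6 h, where the replicate numbers were taken as pairing. The number of arrays limits the precision, with 3 independent experiments per group. Each p of the main fit leaves the replicate numbers out, also in the contrasts where they were taken as pairing. It rests on the spread of arrays within groups, pooled over the 5 groups and moderated across probe sets. Alternatives were a replicate block, quantile normalization once more, median centring, poly-A scaling, a trended robust prior, only the arrays of a contrast, leaving out dim probe sets and leaving out each array.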

Additional observations from a re-analysis of the deposited data

Results flagged for a closer look

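For 17 of the 43 members the change from 2 h to 6 h differed between the compounds in limma's interaction test. The change with naxillin was higher in 13 and lower in 4. Over all probe sets 30.3% were called, 15.1% higher and 15.2% lower. Under poly-A scaling the split of members became 10 higher and 11 lower. The differences, given on the log2 scale as the naxillin change minus the NAA change, are the results set apart here. Among the members known from lignin and the Casparian strip, AT4G33420 stood at 3.27, PRX25 (AT2G41480) at 2.44, PRX72 (AT5G66390) at 1.90, AT1G44970 at 1.43, AT2G22420 at 1.30 and AT5G51890 at 0.57. The root hair member AT4G26010 stood at 2.12 and AT5G39580 at 2.98. Of the members with no role given here, AT4G30170 stood at 2.52, AT5G15180 at 1.92, AT3G01190 at 1.74, AT3G21770 at 1.68 and PRXR1 (AT4G21960) at 0.62. The change with naxillin was the lower one in AT1G68850 (-1.83), AT2G18980 (-1.66), AT5G14130 (-1.39) and AT1G71695 (-1.34). Leaving out any 1 of 8 arrays took AT1G44970 past the threshold, up to an adjusted p of 0.0796 without naxillin 2 h replicate 3, and poly-A scaling did so for AT1G44970 (adjusted p = 0.0575), PRXR1 (0.0861) and AT5G51890 (0.118). The groups of 3 arrays are too small for a test of single outlying arrays.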

How the results depend on the processing

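With 1 array left out at a time, the number of members called ranged from 7 to 12 after 2 h of NAA, 22 to 25 after 6 h of NAA, 0 to 8 after 2 h of naxillin and 0 to 6 after 6 h of naxillin. It ranged from 4 to 10 between the compounds at 2 h, 22 to 27 at 6 h, 18 to 23 between the NAA times and 0 to 1 between the naxillin times. A replicate block gave 11 members after 2 h of naxillin instead of 6, 8 higher and 3 lower. The 3 lower ones were AT2G18980, AT3G01190 and PRXR1. Leaving out dim probe sets gave 5 higher and 1 lower at that time. The replicate block also gave 6 instead of 3 after 6 h of naxillin and 2 instead of 0 between the naxillin times. In the contrasts where the numbers were taken as pairing it gave 26 members after 6 h of NAA, 22 between the NAA times and 28 between the compounds at 6 h; it took no call of a member away there and added AT5G64110, with NAA at 6 h, and AT2G34060, AT2G39040 and AT4G36430 between the compounds. Fitting only the arrays of a contrast gave 3 members after 2 h of naxillin and 0 after 6 h, median centring gave 5 after 6 h of naxillin, and poly-A scaling or leaving out dim probe sets gave 1 between the naxillin times. Poly-A scaling turned 3 members over: AT5G58400 after 6 h of NAA to 0.24, and AT3G03670 and AT3G50990 between the compounds at 6 h to -0.30 and -0.23, from main values of -0.01, 0.01 and 0.08. The causes of these shifts were not tested.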
